A study of Mus musculus with 5 samples.

Results

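The genes described here are the 5 members of the transducin-like enhancer of split (TLE) family named *Tle1*, *Tle2*, *Tle3*, *Tle4* and *Tle6*, chosen by gene symbol from the 32286 features of a single-cell RNA-seq series of mouse synovial sarcoma (SyS). TLE proteins are the mammalian counterparts of fly Groucho. They do not bind DNA themselves but are brought to it by repressor transcription factors, such as the Hes proteins downstream of Notch and the TCF/LEF proteins of the Wnt pathway, and they recruit histone deacetylases there. Staining for TLE1 is widely used by pathologists in the diagnosis of synovial sarcoma, so the question put to these data was how far *Tle1* set the sarcoma cells apart from the other cells of the same tumours, beside its paralogues. *Tle6* is shorter and diverged, and is best known for its role in the oocyte and early embryo.

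Single cells were sequenced from 5 tumours of *hSS2* mice, in which *Rosa26* holds human *SS18::SSX2*, the fusion that drives the disease, silent until TATCre protein was put into a limb at 8 days of life. All 5 carried the fusion, were taken at morbidity, and differed by the histology in their labels, which was biphasic for 2 tumours (BP replicates 1 and 2), monophasic for 1 (MP), a mix of monophasic and biphasic for 1 (MP+BP) and a mix of monophasic and poorly differentiated for 1 (PD+MP). Biphasic tumours hold an epithelial beside a spindle cell component. No normal tissue was among the samples, and the labels do not say whether both BP tumours came from different mice, so p-values speak for these 5 samples only.

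The matrices held 51670 called cells and from 89996321 to 118649103 unique molecular identifier (UMI) counts a tumour, and 39559 cells were kept. Cell classes were rebuilt by clustering, with the TLE genes left out of the clustering features and of the naming markers. Genes that vary with them were not left out. The 24621 cells called SyS-like carried all 13 of the SyS markers at a higher level than the other named classes. Their summed level was 3382 CPM (the usual counts per library total, with every total scaled to the same size) against 116.8 CPM. Clusters were named from such markers, so this describes the classes and does not test their names. The other classes were pericyte-like, fibroblast-like, endothelial-like, macrophage-like, dendritic-like, neutrophil-like, mast-like and T/NK-like. Stromal-like means pericyte-like plus fibroblast-like, and in PD+MP 121 of the 159 stromal-like cells were fibroblast-like, whereas no other tumour had 20 such cells. A further 6243 cells stayed unnamed, and most of these lay in 4 clusters that carried SyS markers. Counts were summed by tumour and class wherever a class had at least 20 cells. SyS-like sums held from 56385075 to 75252330 UMIs and T/NK-like sums only from 98616 to 242021, so values in the small classes rest on few molecules. From 15 to 33 cell barcodes were shared by any pair of tumours.

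*Tle1* (ENSMUSG00000008305) lies on the minus strand at chr4:72117142-72200919 of GRCm38, and *Tle4* (ENSMUSG00000024642) on the minus strand at chr19:14448150-14598051. *Tle3* (ENSMUSG00000032280) lies on the plus strand at chr9:61372366-61418497. *Tle2* (ENSMUSG00000034771), on the plus strand at chr10:81574561-81590845, and *Tle6* (ENSMUSG00000034758), on the minus strand at chr10:81590904-81601073, point tail to tail with 58 bases between their ends. *Gm11250* overlaps *Tle1*, and *Gm15917* overlaps *Tle2*, on the other strand. The sequences below show the 250 bases before a RefSeq start (GRCm38.p6, read on the gene's own strand) for the 3 members with the highest levels. They are shown for comparison, since these genes were all higher in SyS-like cells than in several other classes. For *Tle4* only 1 of 2 windows is printed. The other was like that of *Tle1* in both traits described below. The *Tle1* window is chr4:72200894-72201143, the *Tle4* window chr19:14598184-14598433, from the more distal of 2 starts, and the *Tle3* window chr9:61372116-61372365. Capitals mark CACGTG, the E-box that MYC-related factors recognise, a palindrome and so the same on both strands.
Tle1: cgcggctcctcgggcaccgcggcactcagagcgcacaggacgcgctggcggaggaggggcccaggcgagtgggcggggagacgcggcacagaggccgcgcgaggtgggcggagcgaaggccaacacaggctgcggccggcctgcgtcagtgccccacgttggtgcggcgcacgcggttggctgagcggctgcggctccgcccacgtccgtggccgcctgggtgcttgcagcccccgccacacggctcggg
Tle4: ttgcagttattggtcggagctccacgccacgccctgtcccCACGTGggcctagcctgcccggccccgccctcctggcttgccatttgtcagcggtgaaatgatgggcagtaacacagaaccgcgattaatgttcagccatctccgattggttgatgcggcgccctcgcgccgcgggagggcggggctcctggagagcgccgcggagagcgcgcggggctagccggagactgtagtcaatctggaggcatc
Tle3: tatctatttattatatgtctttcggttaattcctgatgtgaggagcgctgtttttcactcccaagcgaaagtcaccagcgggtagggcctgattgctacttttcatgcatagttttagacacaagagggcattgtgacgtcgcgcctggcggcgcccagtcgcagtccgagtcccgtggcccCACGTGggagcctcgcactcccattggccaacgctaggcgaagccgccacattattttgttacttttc
The *Tle1* window held 35 CpG dinucleotides, a number that 3.0% of all 32851 RefSeq windows of this length reach, against 24 in the *Tle4* and 17 in the *Tle3* window. CACGTG was present 1 time each in the *Tle4* and *Tle3* windows, 210 and 68 bases before the start (positions -210 and -68), and absent from these 250 bases of *Tle1*. The window of the other *Tle4* start held 35 CpG dinucleotides, as many as that of *Tle1*, and no CACGTG. It occurred in 3 of the 7 windows of the 5 members, the last being one of *Tle6*, and in 6.02% of all windows. In each of those 3 windows 1 match lay within the longer string CCACGTGGG, or its reverse complement, found in 0.374% of windows. These strings were chosen after the sequences had been seen, and a match is a description of letters and not of a binding site.

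All 5 members had their highest mean level over tumours in SyS-like cells among classes present in at least 4 tumours, but they differed in how far that level stood above the next class. *Tle4*, not *Tle1*, was the most abundant member there. A 3' library counts molecules, so CPM were not divided by gene length, although capture efficiency may differ between genes. In SyS-like cells *Tle4* measured 313 ± 56 CPM, *Tle1* 232 ± 16, *Tle3* 99.0 ± 14.4, *Tle2* 11.96 ± 3.05 and *Tle6* 7.2 ± 1.8 (mean ± SD, n = 5). The order *Tle4*, *Tle1*, *Tle3*, *Tle2*, *Tle6* held in each of the 5 tumours.

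*Tle1*, the diagnostic member, measured 238 CPM (BP replicate 1), 216 CPM (BP replicate 2), 254 CPM (MP), 236 CPM (MP+BP) and 216 CPM (PD+MP) in SyS-like cells. In stromal-like cells it measured 117, 114, 93.2, 120 and 49.6 CPM in the same order, with the lowest value in the tumour whose stroma was mostly fibroblast-like. The 38 pericyte-like cells of that tumour also had the lowest value of their class, 54.9 CPM. The lowest SyS-like sum lay above the highest sum of every other named class. How many of all genes separate the classes in this way was not counted. Sums of the unnamed cells, most of them from clusters with SyS markers, held 215 to 320 CPM. Among neutrophil-like sums *Tle1* ran from 69.5 to 166 CPM, with the highest in MP. Endothelial-like sums ran from 46.6 to 76.5 CPM and macrophage-like sums from 42.9 to 83.5. Both classes sat well below the sarcoma cells in each tumour, by at least 2.97-fold and 2.59-fold. Dendritic-like sums held 43.1 to 50.9 CPM in 4 tumours, T/NK-like sums 10.1 to 78.5 in 5, and mast-like sums 31.8 and 58.3 in the 2 tumours that had them. The 121 fibroblast-like cells of PD+MP held 48.4 CPM.

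Ordered by mean, *Tle1* ran from SyS-like (232 CPM) through neutrophil-like (118), pericyte-like (99.0), endothelial-like (65.4), macrophage-like (63.9) and dendritic-like (46.0) to T/NK-like cells (37.7). Of the neighbours in this order, SyS-like and neutrophil-like sums and pericyte-like and endothelial-like sums differed in the same direction in 5 of 5 tumours by more than 1 SD of the paired difference. The other neighbours did not differ beyond their spread. Since cells of different classes hold different amounts of RNA, detection was compared after each cell had been thinned to 2000 UMIs. From 29.5% to 34.8% of SyS-like cells then held a *Tle1* UMI (69.4% to 80.4% without thinning), against 7.74% to 18.4% of stromal-like, 7.89% to 14.7% of macrophage-like, 8.70% to 27.3% of neutrophil-like and at most 5.66% of T/NK-like cells, of which 23 to 53 a tumour were deep enough.

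**Figure D1:**
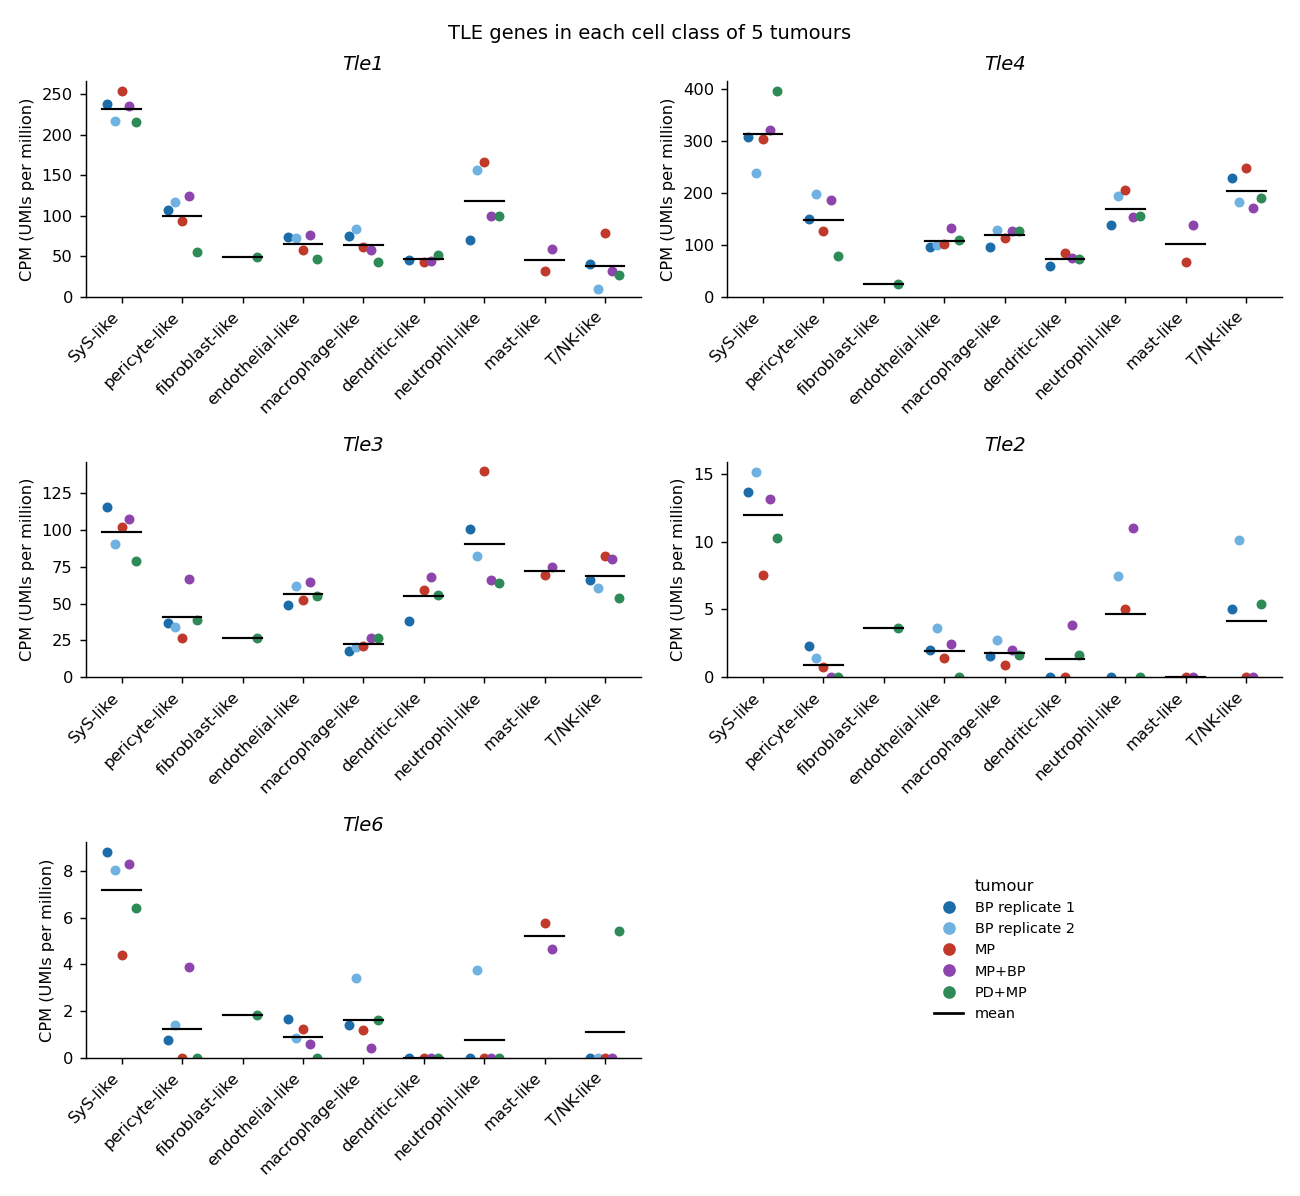
Level of each TLE gene in CPM (vertical axes, each from 0 and with its own scale) by cell class, with 1 point for each tumour that had at least 20 cells and a bar at the mean. SyS-like cells have the highest mean for all 5 genes, *Tle6* in SyS-like cells overlaps with mast-like and T/NK-like cells, and *Tle1* in SyS-like cells (216 to 254 CPM) lies above every other point of its panel.

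*Tle4*, the close relative of *Tle1*, measured 307 CPM (BP replicate 1), 239 CPM (BP replicate 2), 303 CPM (MP), 321 CPM (MP+BP) and 397 CPM (PD+MP) in SyS-like cells. T/NK-like cells came next, at 228, 183, 248, 172 and 190 CPM in that order, so that the highest of them overlapped the lowest SyS-like value, although SyS-like cells were higher within each tumour. The ratio of *Tle4* to *Tle1* in SyS-like cells was 1.29, 1.11, 1.2, 1.36 and 1.84. Stromal-like *Tle4* measured 162, 197, 125 and 174 CPM in the other tumours but 34.8 in PD+MP, where fibroblast-like cells held 24.7 and the 38 pericyte-like cells 78.4. PD+MP thus had both the highest SyS-like and the lowest stromal-like value of *Tle4*. Neutrophil-like sums held 139 to 206 CPM, macrophage-like 95.7 to 128, endothelial-like 96.5 to 132 and dendritic-like 58.3 to 83.9.

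*Tle3* measured 115, 90.4, 102, 108 and 79.1 CPM in SyS-like cells in the same order of tumours. It was nearly as high in neutrophil-like cells, at 101, 82.1, 141, 66.2 and 63.8 CPM, which exceeded the SyS-like value in MP. These values rest on few molecules, since *Tle1* to *Tle4* together had 129, 118, 103, 30 and 45 UMIs in those sums. In the neutrophil-like sum of MP, the SyS genes named below had a median of 64.4% of the SyS-like level. The part of carried-over RNA in the *Tle3* values was not tested. T/NK-like cells held 54.2 to 82.6 CPM, endothelial-like cells 49.1 to 64.4 and macrophage-like cells 18.0 to 26.7, the lowest of these classes. Of the 6 steps in the order of mean *Tle3* levels only the last, from pericyte-like to macrophage-like cells, was beyond the spread.

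*Tle2* and *Tle6* were scarce everywhere. *Tle2* measured 13.7, 15.2, 7.53, 13.2 and 10.3 CPM in SyS-like cells, and no sum of another named class held more than 13 of its UMIs. *Tle6*, its tail-to-tail neighbour, measured 8.80, 8.05, 4.41, 8.31 and 6.42 CPM. For both genes MP had the lowest SyS-like value and both BP tumours and MP+BP the highest. In dendritic-like cells *Tle6* had 0 UMIs of 1960324 over 4 tumours, where 3 counts over the group would have given 1.53 CPM, so SyS-like cells of those tumours, at 6.86 CPM, were at least 4.48-fold higher. This bound covers counting error only. Mast-like cells held 2 *Tle6* UMIs in each of MP and MP+BP, equal to 5.78 and 4.66 CPM, the first being above the SyS-like value of its tumour.

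SyS-like sums were next set against each other class of the same tumours, with the tumour as a block, by edgeR's quasi-likelihood test over all genes (Benjamini-Hochberg adjusted p under 0.05, called below). The test takes part of its estimate of spread from other genes, so its p-values do not measure 1 gene's spread between tumours alone. *Tle1* was called higher against all 6 classes, with log2 fold changes from 0.84 to 2.51, and no other member was. In single comparisons 13.0% to 36.4% of all genes were called higher, and the share called in all 6 was not counted. The *Tle1* call against neutrophil-like cells was lost with most single tumours left out, as given below. A difference in a sum may mean more RNA per cell or a different mix of cells within a class, which cannot be told apart here. The sarcoma cells also had a generally shifted profile, and many genes changed more than *Tle1* did.

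Against stromal-like cells, the nearest mesenchymal comparator, 4 of 5 members were called higher, beside 16.4% of all 17916 genes tested. *Tle1* was higher by a log2 fold change of 1.04 ± 0.19 (SE, adjusted p = 0.0048), *Tle3* by 1.11 ± 0.20 (adjusted p = 0.0042), *Tle2* by 2.66 ± 0.50 (adjusted p = 0.0048) and *Tle6* by 2.20 ± 0.55 (adjusted p = 0.017). *Tle4* had a log2 fold change of 1.05 ± 0.40 and was not called (adjusted p = 0.079), with SyS-like cells from 1.21-fold higher in BP replicate 2 to 11.4-fold in PD+MP. Without PD+MP its estimate was smaller, 0.61, and was called (adjusted p = 0.018), and it was called with DESeq2 (1.01, adjusted p = 0.049). The *Tle6* call was lost without BP replicate 1 (2.16, adjusted p = 0.066) or BP replicate 2 (2.18, adjusted p = 0.053). The median of all genes was 0.16, which puts *Tle1* 0.89 above it, and 18.7% of genes had a larger log2 fold change than *Tle1*.

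Endothelial-like and macrophage-like cells, the best sampled other classes, gave calls for all 5 members. Against endothelial-like cells 30.4% of genes tested were called higher, and the log2 fold changes were 1.60 ± 0.16 for *Tle1*, 1.30 ± 0.15 for *Tle4*, 0.58 ± 0.14 for *Tle3*, 2.24 ± 0.30 for *Tle2* and 2.49 ± 0.39 for *Tle6*, with edgeR adjusted p from 2.7e-05 to 0.0065. Against macrophage-like cells 36.4% were called higher, with 1.28 ± 0.16 for *Tle1*, 0.79 ± 0.15 for *Tle4*, 1.52 ± 0.17 for *Tle3*, 2.17 ± 0.25 for *Tle2* and 1.56 ± 0.36 for *Tle6*, with edgeR adjusted p from 2.5e-05 to 0.0036. *Tle3* thus had the smallest change of the 5 against endothelial-like cells and *Tle4* against macrophage-like cells. A larger change than that of *Tle1* was found for 15.4% and 27.0% of genes in these comparisons.

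Against T/NK-like cells *Tle1* and *Tle4* were called. *Tle1* was higher by 2.51 ± 0.29 (edgeR adjusted p = 9.7e-13), the largest of its 6 log2 fold changes, with SyS-like cells from 3.23-fold to 21.3-fold higher in 5 of 5 tumours. The T/NK-like sums held only 8, 1, 19, 6 and 5 *Tle1* UMIs. *Tle4* was called at 0.55 ± 0.22 (adjusted p = 0.037), which is 0.07 below the median of all genes, 0.63. That call was lost without BP replicate 1 (0.62), MP+BP (0.51) or PD+MP (0.40), with DESeq2 (0.51) and with doublets kept (0.44). *Tle3*, at 0.45 ± 0.28, was not called (adjusted p = 0.20). *Tle2* had 3 UMIs over all T/NK-like sums, a ratio of 3.60 (95% counting interval 1.23 to 17.5, exact), and was not called (adjusted p = 0.077), nor was *Tle6*, with 1 UMI there, a ratio of 6.47 with a counting interval of 1.16 to 255.7 (adjusted p = 0.074). The 2 members called compare with 24.4% of 16446 genes.

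Against neutrophil-like cells *Tle1* alone was called, at 0.84 ± 0.30 (adjusted p = 0.037), where 13.0% of genes were called higher and 38.5% had a larger change. The call was lost without BP replicate 1 (0.73), MP (0.93), MP+BP (0.77) or PD+MP (0.81), and also with doublets kept (0.26). *Tle4*, at 0.68 ± 0.29 (adjusted p = 0.083), and *Tle3*, at -0.06 ± 0.31 (adjusted p = 0.91), were not called. The sign of *Tle3* turned with library size scaling (0.13) and without BP replicate 1 (0.02) or MP (0.09). The sums held 26 to 142 cells. The SyS genes *Adgrb3*, *Reln*, *Nxph1*, *Hs6st3* and *Peg10* had a median level of 64.4% of the SyS-like level in neutrophil-like cells of MP, 36.4% in BP replicate 2 and 18.3% in BP replicate 1, against 1.21% in MP+BP and 1.00% in PD+MP. *Tle1* stood at 65.3%, 72.5%, 29.2%, 42.1% and 46.0% of the SyS-like level in those tumours. The *Tle1* values of MP+BP and PD+MP rest on 9 and 14 UMIs. The part of the SyS genes' RNA in these levels was not tested.

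Dendritic-like cells, compared in 4 tumours, gave calls for 4 members, beside 28.1% of genes. *Tle1* was higher by 1.86 ± 0.23 (adjusted p = 2.4e-07) and *Tle4* by 1.72 ± 0.22 (adjusted p = 6.4e-07), nearly the same amount. *Tle2*, with 3 dendritic-like UMIs, was at a ratio of 7.17 (95% counting interval 2.45 to 34.8) and called (adjusted p = 0.014), though not without BP replicate 1 (adjusted p = 0.088). *Tle6* was called with the bound given above, and *Tle3* was not called, at 0.37 ± 0.24 (adjusted p = 0.23). Against the mean of the other classes in 1 fit, *Tle1* was higher by 1.47 ± 0.14 (adjusted p = 2.9e-10), *Tle2* by 2.08 ± 0.29, *Tle4* by 0.98 ± 0.16 and *Tle3* by 0.62 ± 0.14, while *Tle6* was removed by the filter on low counts. There 38.6% of genes were called higher, and 16.1% had a larger change than *Tle1*.

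**Figure D2:**
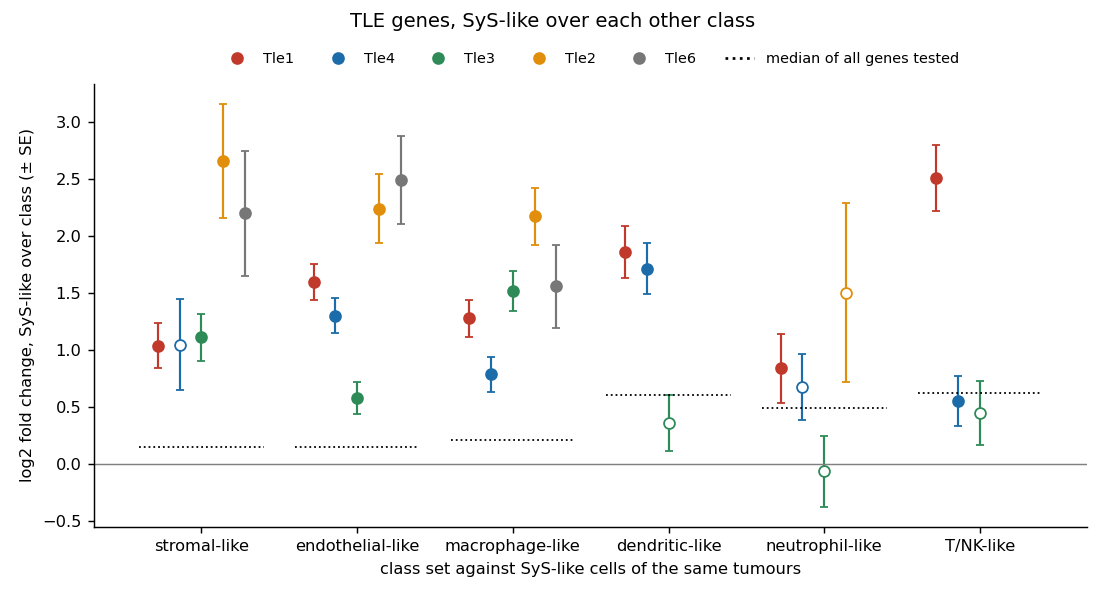
Log2 fold change (vertical axis, ± SE) of the TLE genes in SyS-like cells over 6 other classes of the same tumours (horizontal axis), filled where edgeR's adjusted p was under 0.05 and open otherwise, with the median of all genes tested as a dotted line. *Tle1* is filled in all 6 comparisons and largest against T/NK-like cells (2.51), and genes with 3 or fewer UMIs over the other class are not drawn.

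Outside the neutrophil-like cells, the same 5 SyS genes had medians of 0% to 14.5% of the SyS-like level in sums of named classes, apart from T/NK-like cells of MP (17.5%) and mast-like cells of MP+BP (22.9%), while *Tle1* in stromal-like sums was at 23.0% to 52.9%. *Peg10* was not particular to the SyS-like cells. The part of carried-over RNA in the *Tle1* levels of other classes was not tested. Scaling by library size alone moved the median of all genes from 0.16 to 0.41 against stromal-like cells and from 0.21 to 0.83 against macrophage-like cells. The share of calls that were higher in the SyS-like cells then moved from 55.1% to 71.4% and from 57.1% to 76.9%, and it moved by more than 10 percentage points against endothelial-like (56.7% to 67.8%), neutrophil-like (55.5% to 67.0%) and dendritic-like cells (64.5% to 79.4%) and the mean of the classes (63.9% to 79.1%). Relative to that median *Tle1* stayed at 0.88 and 1.07 above it in the first 2 comparisons.

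Because a share within a library does not depend on scaling, the part of *Tle1* in the summed *Tle1* to *Tle4* UMIs was compared. The sum of these 4 genes, most of it *Tle4* and *Tle1*, was 656 ± 55 CPM in SyS-like cells. Among other classes present in at least 4 tumours its mean ran from 175 CPM in dendritic-like to 383 CPM in neutrophil-like cells, and the fibroblast-like sum of PD+MP held 103 CPM. In SyS-like cells *Tle1* made up 35.3% (BP replicate 1), 38.6% (BP replicate 2), 38.1% (MP), 34.8% (MP+BP) and 30.7% (PD+MP) of the family. Its mean of 35.5% ± 3.1 (SD, n = 5) lay beside 36.5% ± 4.1 in stromal-like cells. *Tle4* made up 47.5% ± 5.3 and *Tle3* 15.1% ± 2.3 of the family in the sarcoma cells.

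The *Tle1* share was lower in T/NK-like cells, at 11.2% ± 5.5, than in SyS-like cells in 5 of 5 tumours, by 24.3 percentage points (18.9 to 34.7). An exact paired permutation test (two-sided) gave p = 0.0625, the smallest that 5 pairs allow, and 0.188 after adjustment over the 6 classes, so no comparison of shares could pass 0.05. *Tle4* took 65.2% ± 4.4 of the family in T/NK-like cells. Endothelial-like cells had a *Tle1* share 7.29 points lower in 5 of 5 tumours (exact permutation p = 0.0625, adjusted 0.188), and dendritic-like cells one 7.97 points lower in 4 of 4 (p = 0.125, also the smallest possible). Against neutrophil-like cells the difference was 5.24 points in 4 of 5 tumours (exact p = 0.125) and against macrophage-like cells 4.58 points in 4 of 5 (exact p = 0.188). Stromal-like cells had a share 0.98 points higher than SyS-like cells on average, the sarcoma cells being higher in 3 of 5 tumours (exact p = 0.875, difference from -11.9 to 5.495 points). Without PD+MP the sign turned, to 1.77 points higher in SyS-like cells. The 121 fibroblast-like cells of PD+MP had the highest *Tle1* share of any sum, 46.9%, with *Tle4* at 23.9%.

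**Figure D3:**
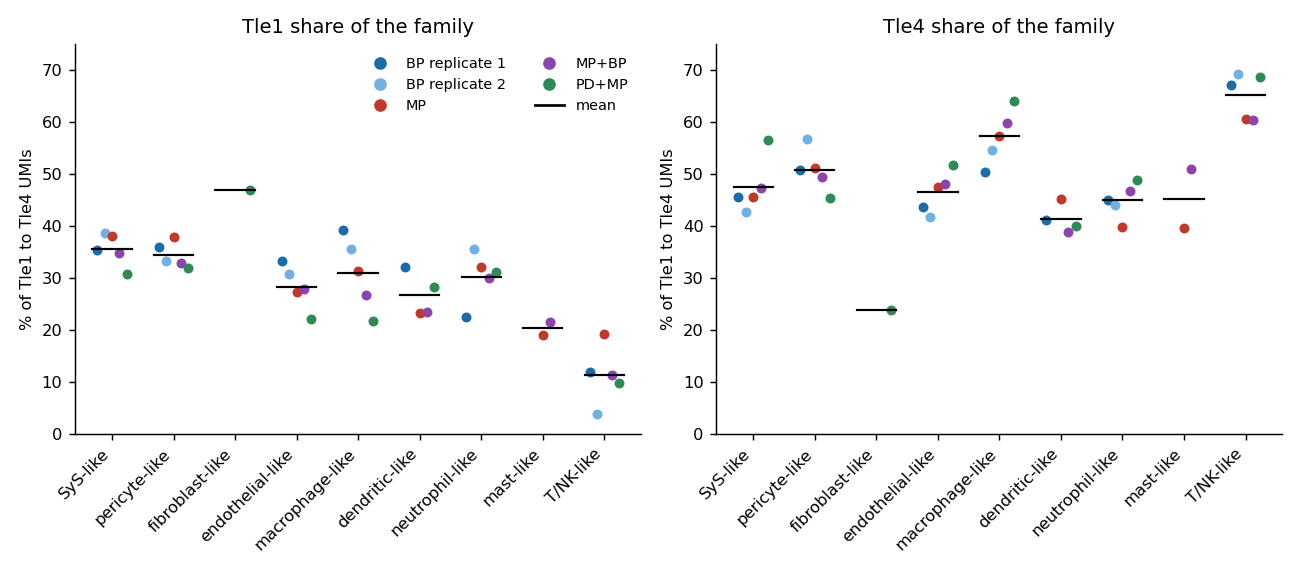
Share of *Tle1* (left) and *Tle4* (right) in the summed UMIs of *Tle1* to *Tle4* (vertical axes, percent) by cell class, with 1 point for each tumour and a bar at the mean. *Tle1* shares are lowest in T/NK-like cells (3.85% to 19.2%) and alike in SyS-like and pericyte-like cells (means of 35.5% and 34.3%).

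Within the sarcoma cells the levels also varied. Over 31 sums of cluster and tumour, from 14 SyS-like clusters, *Tle1* ran from 129 to 309 CPM, and within a tumour the highest cluster exceeded the lowest by 1.85-fold to 2.20-fold. *Tle4* ran from 147 to 660 CPM and was above *Tle1* in 29 of the 31 sums. The highest *Tle4* level, with *Tle1* at 306 CPM, came from a cluster of 1589 cells of PD+MP led by *Igf2* and *Xkr4*, with a median of 2945 UMIs a cell. Pearson's r of the log2 levels of both genes over these 31 sums was 0.77, which is a description, since the sums share tumours and differ in depth. The *Tle1* share ran from 26.9% to 43.6%. The cluster led by *Npnt* and *Cpvl* had the highest *Tle3* level of BP replicate 1 (150 CPM) and of MP+BP (129 CPM). It also had the highest of MP (111 CPM), close to the 108 CPM of another cluster there. Both *Tle1* and *Tle4* were low, 152 and 160 CPM in BP replicate 1, in a cluster led by *En1* and *Bex1*. Clusters were named from these cells and are not tested.

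**Figure D4:**
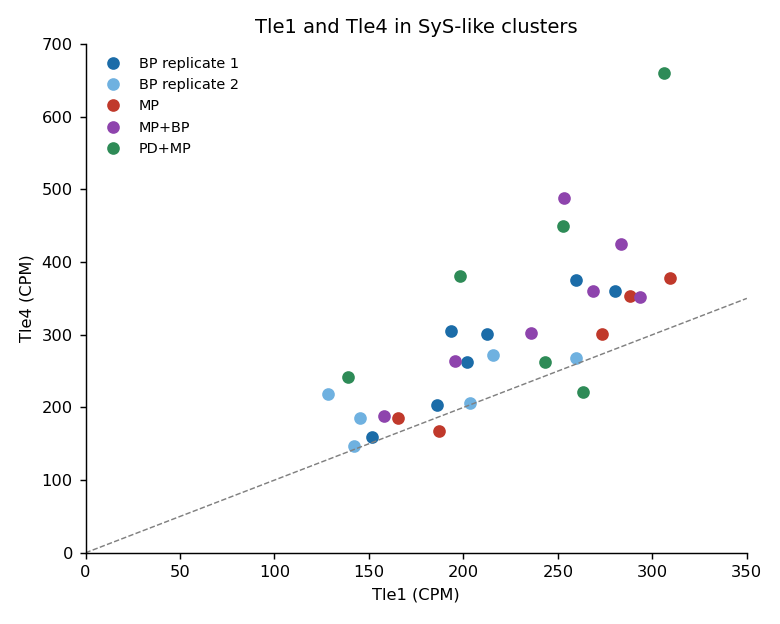
*Tle1* (horizontal axis, CPM) against *Tle4* (vertical axis, CPM) in 31 sums of SyS-like cluster and tumour, coloured by tumour, with a dashed line where both are equal. *Tle4* lies above the line in 29 of 31 sums, and the highest point, 660 CPM, is from PD+MP.

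SyS-like cells with UMIs of at least 2 of 10 epithelial genes (positive) were set against those with none (negative). Positive cells numbered 390 of 2889 (BP replicate 1), 348 of 5268 (BP replicate 2), 371 of 4443 (MP), 741 of 5887 (MP+BP) and 41 of 6134 (PD+MP). The tumour labelled monophasic thus held about as many as a biphasic one, so these cells cannot be equated with the epithelial component of the histology. Positive cells had deeper libraries, with medians of 15763 to 32369 UMIs against 6976 to 10962, so the choice of cells goes with depth. *Tle3* was the 1 member called, where 10.2% of genes were called higher. It measured 137, 106, 120, 128 and 90.4 CPM in positive cells and 103, 84.4, 94.4, 93.8 and 78.1 in negative ones, higher in 5 of 5 tumours by a log2 fold change of 0.26 ± 0.05 (edgeR adjusted p = 0.0024). With positive and negative cells chosen on counts thinned to 3000 UMIs, but summed with all their UMIs, 4 tumours had enough cells, and the estimate was 0.30 with the call lost (adjusted p = 0.40). *Tle1* did not differ by more than its error, at 0.03 ± 0.05 (adjusted p = 0.71), and its estimate was -0.09 with cells chosen on thinned counts. Scaling by library size called *Tle1* (0.15), *Tle2* (0.34) and *Tle4* (0.18) too, and moved the share of calls that were higher from 40.3% to 73.5%. *Tle4*, at 0.07 ± 0.06, was called without PD+MP (0.13).

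SyS-like cells with UMIs of at least 3 of 10 G2/M genes, genes of the late cell cycle, were set against cells with none, and members were called in both directions. This choice of cells also goes with depth, with medians of 13815 to 22677 UMIs in positive and 5959 to 10876 in negative cells. *Tle4* measured 344, 276, 327, 391.6 and 396 CPM in positive and 270, 201, 265, 267 and 397 in negative cells. It was called higher, by 0.24 ± 0.06 (edgeR adjusted p = 0.017), where 17.2% of genes were called higher, although in PD+MP both values were the same. *Tle2* measured 12.8, 12.6, 7.79, 11.0 and 8.30 CPM in positive and 14.1, 16.9, 7.32, 14.8 and 13.97 in negative cells and was called lower (-0.44 ± 0.10, adjusted p = 0.0090). *Tle6* was called lower too, at -0.50 ± 0.10 (adjusted p = 0.0039), with 5.40 CPM against 7.74 in PD+MP and a lower value in positive cells of all 5 tumours. Over all tumours the 2 scarce members were thus called lower and the most abundant higher, and 20.8% of genes were called lower. This contrast did not hold in each tumour, since *Tle2* was not lower in MP and *Tle4* not higher in PD+MP. *Tle1*, at 0.13 ± 0.05 (adjusted p = 0.061), and *Tle3*, at 0.06 ± 0.05 (adjusted p = 0.38), were not called, but *Tle1* was called without PD+MP (0.17). The *Tle4* call was lost without MP+BP (0.18). Scaling by library size moved the share of higher calls from 45.2% to 65.7%. With cells chosen on counts thinned to 3000 UMIs all 3 calls were kept, at 0.25 for *Tle4* (adjusted p = 0.0070), -0.55 for *Tle2* (adjusted p = 0.0019) and -0.49 for *Tle6* (adjusted p = 0.019).

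**Figure D5:**
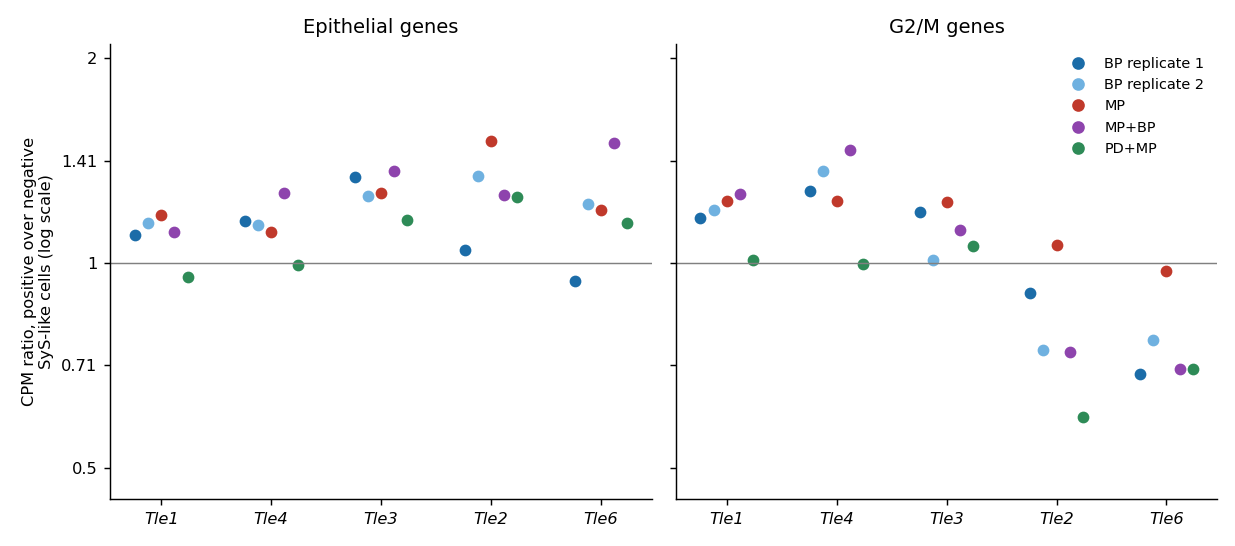
Ratio of CPM in positive over negative SyS-like cells (vertical axis, log scale) for each TLE gene and tumour, for epithelial genes (left) and G2/M genes (right), with a line at 1. *Tle3* lies above 1 in all 5 tumours on the left, and *Tle6* below 1 in all 5 on the right, while *Tle4* in PD+MP lies close to 1 in both (0.992 and 0.998).

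Histology labels were compared over the 3 tumours with a biphasic component and the 2 without. No member was called, and the background was 0% of 20767 genes by edgeR, although 1935 genes had an unadjusted p under 0.05 and DESeq2 called 451 higher and 88 lower. *Tle1* in SyS-like cells was 227 ± 15 CPM in BP (n = 2), beside 254, 236 and 216 in MP, MP+BP and PD+MP, a log2 difference of -0.08 ± 0.17 (edgeR adjusted p = 0.90) for the biphasic label. The BP tumours themselves stood at 238 and 216 CPM, apart by a good part of the range of all 5 tumours. *Tle4* was at -0.33 ± 0.22 (adjusted p = 0.63), *Tle3* at 0.15 ± 0.20, *Tle2* at 0.61 ± 0.27 (adjusted p = 0.55) and *Tle6* at 0.58 ± 0.29 (adjusted p = 0.57). In simulated data only 1% of 2-fold changes of randomly chosen genes were recovered in this comparison, so missing calls say little about genes in general. The simulation used the general spread of genes and not that of each TLE gene, for which the errors given above apply.

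Genes that act with TLE proteins were taken as a list of 30, all of them found. Against stromal-like cells 29 were tested, 17 were called higher and 3 lower, beside 16.4% and 13.4% of all genes, with a median log2 fold change of 0.96 against 0.16 for all genes. *Tle5*, the short family member that lacks the WD40 repeats and counters the others, measured 225 ± 16 CPM in SyS-like and 101 ± 7 in stromal-like cells (0.91 ± 0.14, adjusted p = 0.0018). It was not called against T/NK-like (-0.01, adjusted p = 0.98) or macrophage-like cells (0.26, adjusted p = 0.11), in contrast to *Tle1*.

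The paired box gene *Pax5* had no UMI in the stromal-like sums, and its SyS-like mean of 6.07 CPM was at least 14.9-fold above 3 counts over them. Its SyS-like sums ran from 0.605 to 11.2 CPM, so this bound holds for the mean and not for each tumour. *Pax2* (4.39, 56.6 against 2.34 CPM), the Notch target *Hes5* (4.15, 21.2 against 1.11 CPM) and the homeobox genes *Nkx2-2* (3.23), *En2* (2.84, 120 against 16.8 CPM), *Msx1* (2.06, 185 against 38.6 CPM) and *Nkx6-1* (2.05) were called higher, the values in brackets being log2 fold changes and mean levels. The forkhead genes *Foxa2* (3.08) and *Foxd3* (2.86) were also called, at SyS-like means of only 11.6 and 13.9 CPM. *Lef1*, a nuclear effector of Wnt signalling, was higher by 2.44, with SyS-like sums from 26.1 to 351 CPM, and *Runx3* by 1.97. The 3 members called lower, named after their values were seen, were *Tcf7* (-1.36), the relative of *Lef1*, *Runx2* (-1.48), the osteoblast regulator, and *Prdm1* (-1.83). The counts of 17 and 3 thus include partners of the same family on both sides. Such pairs were *Lef1* and *Tcf7*, and *Runx3* and *Runx2*.

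*Tle1* was set beside 9 other genes whose proteins are stained in the diagnosis of this tumour, of which 8 had a single feature and 6 were tested against stromal-like cells. *Epcam*, itself one of the naming markers and so a description here, had a log2 fold change of 3.87. *Ncam1*, the adhesion molecule CD56, was higher by 2.39 (adjusted p = 0.0031) and the keratin gene *Krt18* by 2.65 (adjusted p = 0.0025). *Krt8* (2.06, adjusted p = 0.059), *Muc1* (1.75, adjusted p = 0.23) and the apoptosis inhibitor *Bcl2* (0.06, adjusted p = 0.88) were not called. *Ncam1* and *Krt18* thus had larger estimates than *Tle1* (1.04), but they varied more over SyS-like sums, from 105 to 325 CPM and from 12.9 to 44.0 CPM, than *Tle1* did (216 to 254 CPM). Against T/NK-like cells *Bcl2* was lower, by a log2 fold change of -2.31.

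The genes whose levels over 37 sums of tumour and named class were most like those of *Tle1* were *Cask* (Pearson's r of log2(CPM + 1) 0.90), *Atxn2* (0.84), *Mfsd13a* (0.82), *Cdh22* (0.82) and *Sun1* (0.81), among 11901 genes with a mean of at least 5 CPM. The paralogues were less alike, *Tle4* at 0.54 and *Tle3* at 0.33. For *Tle4* the most alike were *Ints6l* (0.81), *Arid1a* (0.77) and *Atf2* (0.75), and for *Tle3* they were *Ywhaz* (0.79), *Hs3st3b1* (0.75) and *Pdzd8* (0.72). These values describe sums that share tumours and libraries and differ in depth, and carry no test.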

How the data were processed

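Tumours were dissociated and sequenced with droplet-based 3' v3.1 chemistry. The authors deposited filtered matrices of UMI counts, not normalized, for each gene in each called cell, made with Cell Ranger 7.2.0 (per the file headers), with build mm10 per the submitters' processing notes. Whether intronic reads were counted is not given in the sources used here. Of 32286 features, 32235 were in GENCODE M21.

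Cells with at least 750 genes and at most 25% mitochondrial UMIs were kept, as in the study's methods, and the highest-scoring doublets up to an expected share of 0.8% for each 1000 cells were removed (scanpy 1.11.5). The 3000 most variable features, without the genes reported here, and 30 principal components were clustered (leidenalg 0.10.2, resolution 1). Clusters were named from markers, at least 3 being needed, so names are rebuilt and may differ from the study's. A cluster tied between B and dendritic markers stayed unnamed. Counts were summed per tumour and class of at least 20 cells and tested with edgeR 4.0.16 (TMM, filterByExpr, quasi-likelihood, tumour as a block where classes or cell states of the same tumour were compared). Values were compared as CPM computed from these counts. The block pairs sums of the same tumour. DESeq2 1.42.0 was an alternative. Likeness used a pseudocount of 1. Intervals and floors cover counting error only, and TLE levels in SyS-like sums rest on 326 to 28181 UMIs.

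The edgeR step was checked on simulated counts, where 70.5% of 4-fold and 12.5% of 2-fold changes were recovered against stromal-like cells, among 17352 genes. Named were the 5 members in every comparison, of the 30 partner genes those called against stromal-like cells, at most 12 by size of change (1 of them is not reported here), and *Tle5*, all stained genes tested, and the 5 genes most like *Tle1* and the 3 most like each other member with a mean of at least 5 CPM. The members and lists were chosen with earlier results of these data known. Alternatives changed scaling, filters, doublets, resolution, depth, the block and the tumours left out.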

Additional observations from a re-analysis of the deposited data

Results flagged for a closer look

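In 4 ratios of SyS-like cells, 1 tumour label lay on the other side of 1 from every tumour of the other labels. For epithelial genes, *Tle1* in positive over negative cells had a CPM ratio of 0.954 in PD+MP, against 1.098 to 1.175 elsewhere, and *Tle4* one of 0.992, against 1.11 to 1.27. PD+MP had 41 positive cells. For G2/M genes, *Tle4* had a ratio of 0.998 in PD+MP, against 1.24 to 1.47, and *Tle2* one of 1.06 in MP, against 0.594 to 0.905. These differences between labels were not tested, since PD+MP and MP are 1 tumour each, and 2 of the 4 are within 1% of no change. Of 44 groups of levels checked for a tumour far from the others by Dixon's ratio, 0 stood out, where chance alone gives about 1 in 20.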

How the results depend on the processing

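*Tle1* was called higher over stromal-like, endothelial-like, macrophage-like, T/NK-like and dendritic-like cells under every alternative that gave a value. Over neutrophil-like cells it was 0.26 with doublets kept and 0.83 with the BP tumours summed as 1, neither called, and 0.73 to 0.96 with a tumour left out. *Tle3* there was 0.13 with library size scaling and -0.19 to 0.086 with a tumour left out. Members called over neutrophil-like cells, 1 of 5, became 3 with library size scaling, 2 with DESeq2, 3 with no replicate block, 0 with doublets kept, 0 with the BP tumours summed, 2 with all classes in 1 fit, and 0 to 2 with a tumour left out. Over T/NK-like cells 2 became 1 with DESeq2, no filter on low counts, at most 10% mitochondrial UMIs, the BP tumours summed, all classes in 1 fit or SyS-like sums thinned, and 1 to 2 with a tumour left out. Over dendritic-like cells 4 became 2 with thinned sums. For epithelial genes 1 became 4 with library size scaling, 0 without the block and 0 with cells chosen on counts thinned to 3000 UMIs, and 1 to 2 with a tumour left out, and *Tle1* was 0.15 with library size scaling, -0.0015 with no filter on low counts and -0.086 with cells so chosen. For G2/M genes 3 became 5 with library size scaling and 0 without the block, and *Tle1* was 0.23 with library size scaling, 0.14 with at least 1500 genes a cell and 0.11 to 0.17 with a tumour left out. Library size scaling also raised the number of all genes called higher over neutrophil-like cells, from 2153 to 3122. The number rose from 1759 to 4331 for epithelial genes and from 2996 to 4510 for G2/M genes. Genes called lower became fewer in each of these comparisons. *Tle3* for the biphasic label was -0.015 to 0.29 with a tumour left out, and over all genes leaving out MP gave 300 higher and 200 lower calls in place of 0. The *Tle1* share against stromal-like cells was 0.341 points with doublets kept and -2.59 to 1.77 with a tumour left out. Of the other settings, 685 log2 fold changes of members kept their side of the threshold and direction. At least 1500 genes a cell left too few T/NK-like and neutrophil-like cells for a value. Counting 4 unnamed clusters with SyS markers as SyS-like, an alternative chosen after seeing the data, changed no number of members called by over 1.5 times. The causes of these changes were not tested.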

Other observations

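The unnamed cells held *Tle1* at 242 CPM (BP replicate 1), 215 CPM (BP replicate 2), 320 CPM (MP), 298 CPM (MP+BP) and 215 CPM (PD+MP), and *Tle4* at 337, 267, 447, 463 and 541 CPM. Most of these cells came from 4 clusters that carried SyS markers, and they entered no comparison. Their mean *Malat1* level, a nuclear RNA, was 33159 CPM against 15096 in SyS-like and 20297 in stromal-like cells, and their mean mitochondrial share was 8.29% against 4.23% in SyS-like cells. Whether this goes with their *Tle4* level was not tested.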
